A study of Homo sapiens with 4 samples.

Results

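The mevalonate arm of cholesterol synthesis is the stretch of the pathway that turns acetoacetyl-CoA into farnesyl diphosphate. It is described here through 7 genes for its enzymes: ACAT2, HMGCS1, MVK, PMVK, MVD, IDI1 and FDPS. They are 7 of the 14884 genes that could be named on the arrays, and all 7 were found. A gene was represented by the probe set whose annotation gave its symbol alone, and by the one with the highest mean over the 4 arrays where there were several. Only FDPS had more than 1 such probe set. The genes were listed with the difference between treated and control arrays already known, so that difference is given for them as a description, with no test.

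The cells were RWP-1, an established human line derived from a pancreatic cancer. Both groups were this line. The Ctrl group (2 arrays) was untreated, and the rGAL1 group (2 arrays) received rGAL1, read here as recombinant galectin-1, a lectin that cells secrete and that recognises beta-galactosides on glycans. Dose, duration and vehicle are not in the labels, nor is the origin of replicate arrays in separate cultures, so p-values rest on a spread between arrays that may be technical only. The array called rGAL1 2 carries conflicting labels: its title and source name put it in the rGAL1 group, whereas the field for its treatment says untreated. It stayed with rGAL1 here, and for the 7 genes and MMAB the difference with this array counted as a control is given too.

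As background, the arm starts in the cytosol, where a thiolase joins acetyl-CoA units and a synthase adds another to give HMG-CoA. HMG-CoA reductase then makes mevalonate, in the step that limits the rate of the pathway, and successive phosphorylations and a decarboxylation yield isopentenyl diphosphate. This isoprene unit is isomerised and condensed to farnesyl diphosphate, from which squalene and cholesterol, dolichol, ubiquinone side chains and the lipid anchors of prenylated proteins are made. Genes of the pathway are controlled together by SREBP2, a transcription factor that is held in the endoplasmic reticulum when sterols are abundant. It binds sterol regulatory elements in their promoters, usually beside sites for NF-Y, which recognises CCAAT, and for Sp1, which recognises GC boxes. The reductase gene is not analysed here.

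Promoter sequences are shown because SREBP2 and NF-Y act through promoters of the pathway. The part of these sequences in the expression differences was not tested. The RefSeq table of start sites (GRCh38.p14) held 6 of the 7 genes with 9 start sites in all, and the windows below are the 250 bases before a start, read 5′ to 3′ on the strand of the gene. Capitals mark CCAAT or its reverse complement. PMVK is shown as the member whose groups overlapped in the expression data; its single listed start lies 5939 bases inside the span of its gene, and the sequence before the outer end of that span was not searched.
HMGCS1, chr5:43313413-43313662, minus strand: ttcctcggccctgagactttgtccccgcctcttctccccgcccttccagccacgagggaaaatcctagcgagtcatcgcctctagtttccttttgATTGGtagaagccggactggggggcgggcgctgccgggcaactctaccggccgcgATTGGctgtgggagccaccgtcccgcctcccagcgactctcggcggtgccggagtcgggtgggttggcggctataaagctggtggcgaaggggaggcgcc
MVK, chr12:109573544-109573793, plus strand: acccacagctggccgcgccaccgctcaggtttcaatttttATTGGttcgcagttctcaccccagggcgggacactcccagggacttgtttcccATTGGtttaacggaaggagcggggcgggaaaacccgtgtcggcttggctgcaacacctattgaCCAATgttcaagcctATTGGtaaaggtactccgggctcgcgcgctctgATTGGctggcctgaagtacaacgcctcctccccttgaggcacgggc
PMVK, chr1:154936720-154936969, minus strand: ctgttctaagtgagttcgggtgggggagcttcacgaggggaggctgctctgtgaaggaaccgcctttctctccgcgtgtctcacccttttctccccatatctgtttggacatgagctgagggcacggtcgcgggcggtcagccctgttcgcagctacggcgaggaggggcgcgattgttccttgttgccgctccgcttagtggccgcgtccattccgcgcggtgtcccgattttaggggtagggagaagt
MVD, chr16:88663092-88663341, minus strand: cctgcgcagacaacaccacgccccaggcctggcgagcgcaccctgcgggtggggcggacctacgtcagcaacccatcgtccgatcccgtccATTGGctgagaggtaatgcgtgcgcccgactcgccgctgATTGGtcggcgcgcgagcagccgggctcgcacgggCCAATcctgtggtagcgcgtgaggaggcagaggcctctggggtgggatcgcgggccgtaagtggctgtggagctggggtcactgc
FDPS, chr1:155308616-155308865, plus strand: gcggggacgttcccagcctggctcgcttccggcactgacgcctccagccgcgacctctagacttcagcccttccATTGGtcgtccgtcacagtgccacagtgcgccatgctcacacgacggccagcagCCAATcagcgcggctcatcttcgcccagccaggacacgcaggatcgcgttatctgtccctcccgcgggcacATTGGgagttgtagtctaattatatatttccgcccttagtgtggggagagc

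The CCAAT letters, searched on both strands, occurred 5 times in the MVK window, 3 times each in the MVD and FDPS windows and 2 times in the HMGCS1 window shown. IDI1 had 3 starts in the table, with 3, 2 and 0 matches. Those with 3 and 2 lie 7818 and 7585 bases inside the span of its gene, and the one with 0 lies at the outer end. The single MVK start lies 522 bases inside its gene span, so there, too, the sequence before the outer end was not searched. The other HMGCS1 start, 231 bases inside its gene span, and the PMVK start had 0. Thus 5 of the 6 members had a match before at least 1 start, and 6 of their 9 windows held one. Over all 35116 windows of the table the share with a match was 32.0%, and 2.93% held 3 or more. GGGCGG, the GC box, was found in all 9 member windows and in 42.6% of all windows.

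The core of the sterol regulatory element, TCACNCCAC, matched 0 of the 9 member windows, and so did the full element of the LDL receptor gene, which contains that core. Over all windows the shares were 0.883% for the core and 0.0342% for the full element. The inner letters of that element, TCACCCCA, were searched after the sequences had been seen. They occurred in 1 member window, that of MVK, against 1.29% of all windows, 195 bases before the start and beside a GC box:
MVK, inner letters in capitals: cagttcTCACCCCAgggcgg

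A match of letters is a description and not a measured site, and the lack of one says only that these letters are not in the window.

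**Figure D1:**
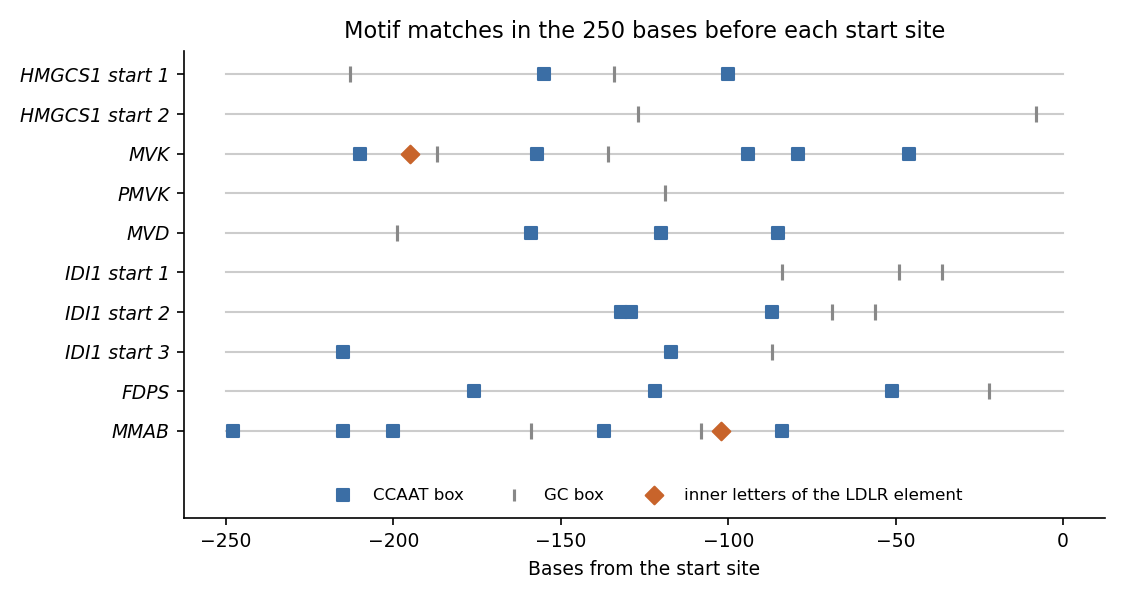
Positions of motif matches in the 250 bases before each RefSeq start site, with the distance from the start on the horizontal axis and 1 row per start site. Blue squares are CCAAT letters, grey ticks GC boxes and orange diamonds the inner letters of the LDL receptor element; MVK holds 5 CCAAT matches and PMVK 0, and MMAB, the neighbour of MVK, holds 5.

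In the expression data, 6 of the 7 genes had lower values on both rGAL1 arrays than on both Ctrl arrays, and PMVK did not. Of all named genes, 17.0% showed this order of the groups and 20.2% the opposite order, which 0 of the 7 had. The list was drawn up with this contrast known, so nothing is read from these counts. The median difference over the 7 genes was -0.30 log2 units, a 1.23-fold lower level, where the median over all named genes was 0.0056. Values are the deposited log2 RMA expression values per probe set. All 7 genes lay above the dim level of 4.70, which is the median probe set on these arrays. A lower value can reflect less RNA per cell or fewer cells that express the gene, and the arrays cannot tell these apart.

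**Figure D2:**
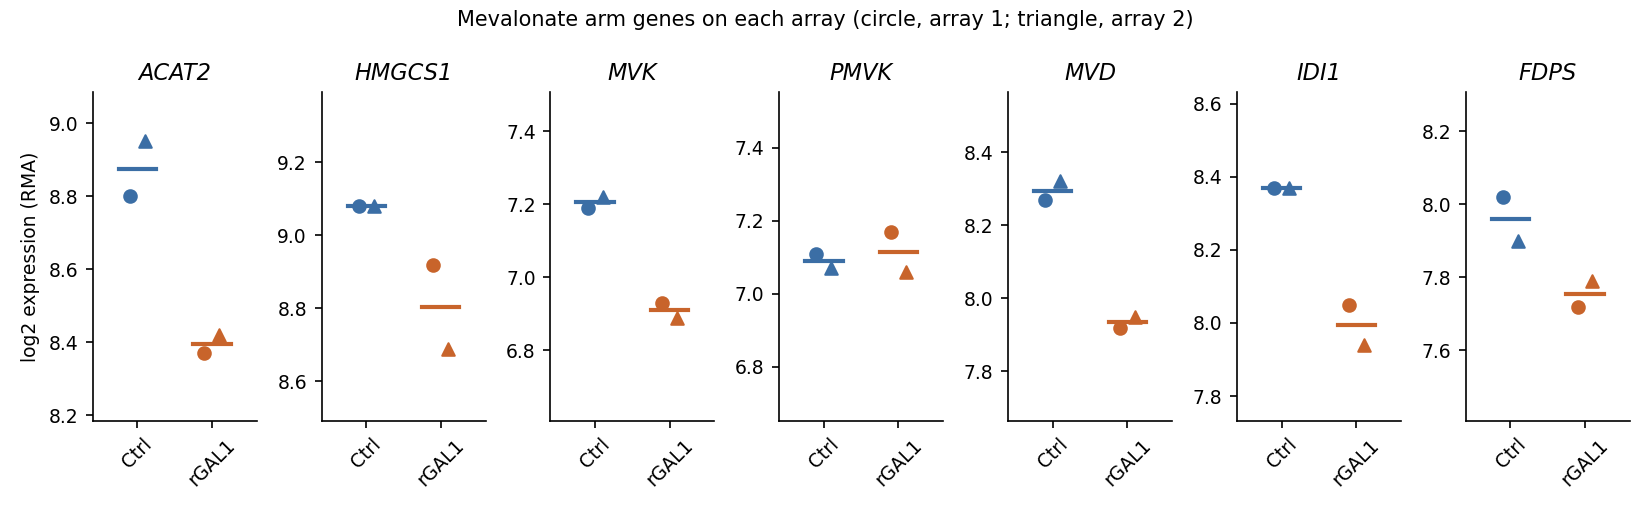
Deposited log2 expression (vertical axis, RMA) of each mevalonate arm gene in reaction order, with circles for array 1, triangles for array 2 and bars for the mean of the 2 arrays of a group. Each panel spans the same number of log2 units; the groups are separate in 6 panels and overlap in that of PMVK.

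The arm opens with ACAT2, the cytosolic acetoacetyl-CoA thiolase (chromosome 6, 159762045 to 159779112, GRCh38.p14). Its values were 8.80 and 8.95 on Ctrl 1 and 2, and 8.37 and 8.42 on rGAL1 1 and 2. Both treated arrays were low, and the nearest arrays of the 2 groups were 0.38 apart. The mean was 8.88 ± 0.108 for Ctrl and 8.40 ± 0.0398 for rGAL1 (log2 value ± SD, n = 2 arrays each), which is a difference of -0.48 with a standard error (SE) of 0.11 from the limma fit, or 1.40-fold. This was the largest difference of the 7. Of all named genes, 48 had a difference at or below it, 0.322% of them. With rGAL1 2 counted as a control the difference was -0.36, and the gap between the groups narrowed from 0.38 to 0.06.

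HMGCS1, the cytosolic HMG-CoA synthase (chromosome 5, 43287470 to 43313412), measured 9.08 on each Ctrl array, and 8.92 and 8.69 on rGAL1 1 and 2. The control arrays coincided and the treated arrays differed from each other by more than rGAL1 1 differed from Ctrl. The difference was -0.28 (SE 0.12), and its 95% interval, -0.59 to 0.04, included 0. The size depended on a single array: it was -0.16 without rGAL1 2, -0.39 without rGAL1 1, and -0.033 with rGAL1 2 counted as a control. The pooled SD within groups was 0.114, against a median of 0.0474 for the 776 named genes within 0.5 log2 units of its level.

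The kinases that follow the reductase are MVK and PMVK, and no test compared them with each other. MVK, mevalonate kinase (chromosome 12, 109573272 to 109598125), measured 7.19 and 7.22 on the Ctrl arrays and 6.93 and 6.89 on the rGAL1 arrays. Its arrays were close within each group and the groups stood 0.27 apart. The difference was -0.30 (SE 0.10; 95% interval -0.56 to -0.04), and the pooled SD of 0.0216 was below the median of 0.0707 for the 2661 genes of like level. Counting rGAL1 2 as a control gave -0.18, and the groups then overlapped.

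PMVK, phosphomevalonate kinase, which adds the second phosphate (chromosome 1, 154924740 to 154942658), measured 7.11 and 7.07 on the Ctrl arrays and 7.17 and 7.06 on the rGAL1 arrays. The highest and the lowest of these were both treated arrays, so the groups overlapped. The difference was 0.028 (SE 0.10), with a 95% interval from -0.25 to 0.30. That interval includes a difference as large as that of FDPS, so an unaltered level is not shown. The value depended on the treated arrays: it was -0.030 without rGAL1 1, 0.085 without rGAL1 2, and 0.095 when rGAL1 2 joined the controls. Whether PMVK differs from the other members in this contrast was not tested, as the genes were chosen on this contrast.

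The enzymes that come next, a decarboxylase and an isomerase, gave differences of similar size. MVD, mevalonate diphosphate decarboxylase, which produces isopentenyl diphosphate (chromosome 16, 88651940 to 88663091), measured 8.27 and 8.32 on the Ctrl arrays and 7.92 and 7.95 on the rGAL1 arrays. Every treated array lay at least 0.32 below every control array. The difference was -0.36 (SE 0.10; 95% interval -0.62 to -0.10), and -0.26 with rGAL1 2 counted as a control.

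IDI1, the isopentenyl diphosphate isomerase (chromosome 10, 1039152 to 1056704), measured 8.37 on each Ctrl array, and 8.05 and 7.94 on rGAL1 1 and 2. The smallest gap between the groups was again 0.32. The difference was -0.38 (SE 0.10; 95% interval -0.65 to -0.11), or 1.30-fold, and -0.18 with rGAL1 2 counted as a control. Its gene span overlaps those of IDI2-AS1 and WDR37 by 5050 and 320 bases. The strand that the probes read is not given in the sources used here, and these neighbours differed by 0.011 and -0.087.

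FDPS, farnesyl diphosphate synthase, which builds the branch-point product (chromosome 1, 155308866 to 155320665), measured 8.02 and 7.90 on the Ctrl arrays and 7.72 and 7.79 on the rGAL1 arrays. This was the smallest difference among the 6 genes with separate groups, at -0.21 (SE 0.11; 95% interval -0.49 to 0.07), and the groups stood 0.12 apart. The difference was -0.19 when rGAL1 2 joined the controls. Its dimmer probe set measured 7.76 and 7.97 on the Ctrl arrays and 7.66 and 7.65 on the rGAL1 arrays. There, too, the treated arrays were lower, by -0.21 (SE 0.12). The 2 probe sets agreed in the size of the difference but not on which control array was higher. FDPS lies 366 kilobases from PMVK on the same chromosome, and the 95% interval of each ran from negative to positive values.

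**Figure D3:**
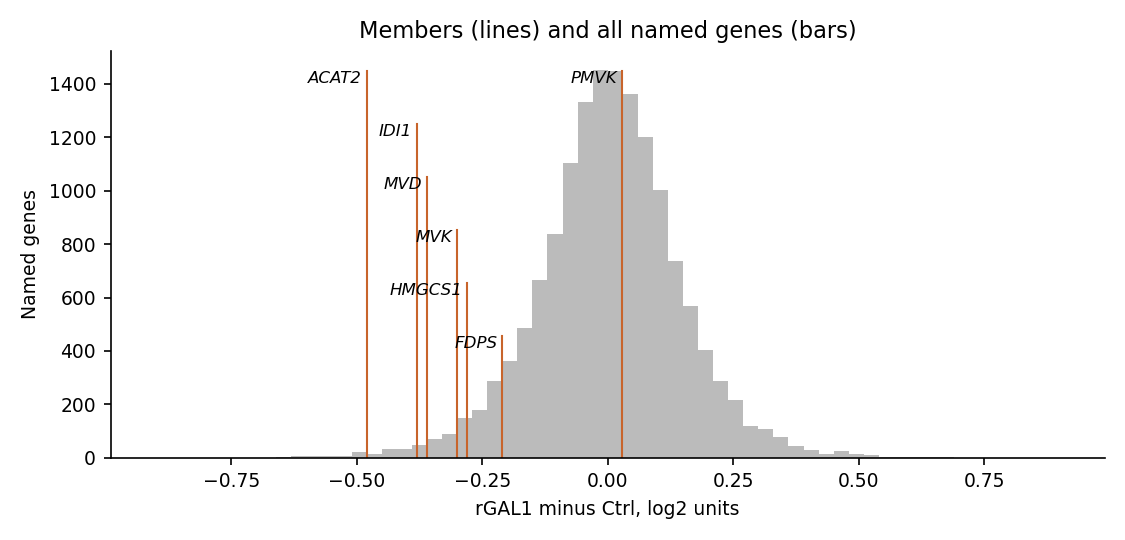
Distribution of the rGAL1 minus Ctrl difference (log2 units, horizontal axis) over the 14884 named genes (grey bars, number of genes) with the 7 mevalonate arm genes as orange lines, whose heights only make room for the names. ACAT2 stands farthest left at -0.48, FDPS at -0.21 reaches the flank of the distribution and PMVK at 0.028 lies near its centre.

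Across the arrays, the members' median deviation from their own means was 0.16 on Ctrl 1, 0.17 on Ctrl 2, -0.13 on rGAL1 1 and -0.17 on rGAL1 2. By this median the control arrays were alike, and so were the treated arrays. Single members spread more, from -0.03 to 0.32 on Ctrl 2 and from -0.27 to 0.07 on rGAL1 1. The members were listed with rGAL1 2 counted as treated. The order of the medians therefore follows from their choice and says nothing about the labels of rGAL1 2. Ctrl 2 was the highest array for 5 members, and rGAL1 2 the lowest for 4. If rGAL1 2 is taken for a control, 3 members (ACAT2, MVD and FDPS) still had rGAL1 1 below every other array, by 0.03 to 0.07, and the median difference was -0.18.

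The genes with the most similar profile were sought by the distance over the 4 arrays between a gene's centred values and the members' median profile. Among 10677 other named genes above the dim level, the 5 nearest were AXIN2, a feedback inhibitor of Wnt signalling (distance 0.0223), the noncoding RNA gene LINC00857 (0.0278), the pseudogene SBF1P1 (0.0331), LOC155060 (0.0354) and MPV17, which encodes a mitochondrial inner membrane protein (0.0379). MVK stood 0.0228 from the profile, MVD 0.0739, IDI1 0.0893, HMGCS1 0.144, FDPS 0.151, ACAT2 0.208 and PMVK 0.346. Over 4 arrays such a profile mostly records a difference of this size with close replicates.

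A gene outside the list shares regulatory sequence with a member. MMAB, a cobalamin adenosyltransferase of the mitochondrion, lies on the opposite strand with 289 bases between its start and that of MVK, and the pair is known for a shared promoter region through which SREBP2 acts. The 250 base windows of the 2 genes share 211 bases, and the 5 CCAAT matches of MVK are the same letters as the 5 of MMAB. MMAB measured 7.14 and 7.22 on the Ctrl arrays and 7.0 and 6.89 on the rGAL1 arrays. It was lower on both treated arrays, as MVK was. The difference was -0.24 (SE 0.11; 95% interval -0.52 to 0.04) and did not pass (limma, adjusted p = 0.919, unadjusted p = 0.0803). Counting rGAL1 2 among the controls gave -0.082. The gene spans in the RefSeq table overlap by 233 bases, and whether any probe lies in that overlap is not given in the sources used here.

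As a local reference, the nearest measured named gene on each side of each member was taken, whatever its distance. These were 14 genes, with differences from -0.24, that of MMAB, to 0.092 and a median of -0.019. Both rGAL1 arrays were lower than either Ctrl array in 4 of them and higher in 1, against 17.0% and 20.2% of all named genes. The 4 lower ones were MMAB, IL17C beside MVD (-0.14), UBE2Q1 at 366077 bases from PMVK (-0.095) and WDR37 beside IDI1 (-0.087). The higher one was NIM1K beside HMGCS1 (0.092). The nearest measured genes of ACAT2, WTAP and MRPL18 at 5725 and 10699 bases, differed by 0.0031 and -0.031. TCP1, listed beforehand as an overlap neighbour of ACAT2, was not among the named genes measured. Whether any ACAT2 probe lies in that overlap is not given in the sources used here. HCN3 and RUSC1, nearest to FDPS, differed by -0.081 and -0.0062. Of the rest, CCL28, 43562 bases from HMGCS1, differed by 0.036, and FAM222A-AS1, 136083 bases from MVK, by 0.080. PBXIP1 beside PMVK differed by 0.012 and SNAI3-AS1 beside MVD by -0.057.

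Enzymes that catalyse like reactions elsewhere in the cell were read for comparison. ACAT1, the mitochondrial acetoacetyl-CoA thiolase, which serves ketone body and isoleucine metabolism, measured 6.11 and 6.02 on the Ctrl arrays and 6.04 on each rGAL1 array. The groups overlapped, and the difference was -0.029 (SE 0.10; 95% interval -0.29 to 0.24). IDI2, a second isopentenyl diphosphate isomerase, was below the dim level at 4.43 in Ctrl and 4.56 in rGAL1. The thiolases of fatty acid oxidation, ACAA1 in peroxisomes and ACAA2 in mitochondria, differed by 0.027 and 0.11. Of these 4 genes, 0 passed in either direction (limma, smallest adjusted p = 0.956), 0 had an unadjusted p under 0.05, and their median was 0.068.

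Of 18 listed genes that use isoprenoid diphosphates or act on their products, 5 were measured, with differences from -0.010 to 0.096. In 2 of them, NUS1 and TRIT1, both rGAL1 arrays lay above both Ctrl arrays, and in 0 below, against 20.2% and 17.0% of all named genes. DHDDS and NUS1, the subunits of the dolichol-forming prenyltransferase, differed by 0.0088 and 0.088. TRIT1, which attaches an isopentenyl group to transfer RNA, differed by 0.096, and ZMPSTE24 and ICMT, which process prenylated proteins, by -0.010 and -0.0058. The median over these 5 was 0.0088, 0 passed (limma, smallest adjusted p = 0.958) and 0 had an unadjusted p under 0.05. The 95% interval of ICMT, -0.26 to 0.25, includes a difference as large as that of FDPS.

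Downstream of farnesyl diphosphate, 8 of 9 measured enzymes from squalene to cholesterol had both rGAL1 arrays below both Ctrl arrays, with a median of -0.21; of all named genes 17.0% were separate in this direction. DHCR7, of the last steps, differed by -0.37 (SE 0.10), SQLE, squalene epoxidase, by -0.33 (SE 0.11), EBP, a sterol isomerase, by -0.27, and MSMO1, a methyl sterol oxidase, by -0.19. LBR, a sterol reductase that is also a nuclear envelope receptor, differed by 0.073 and was separate in the other direction. Of the 9, 0 passed (limma, smallest adjusted p = 0.919), and 3, all lower, had an unadjusted p under 0.05, against 1.57% of all named genes. All the pathway lists, also those of like reactions and isoprenoid users, were chosen with earlier results of these data known. Nothing is therefore read from their counts. Among 8 measured genes of the pathway's control, INSIG1, which retains SREBP in the endoplasmic reticulum, differed by -0.47, SREBF2, which encodes SREBP2, by -0.13, and SCAP, the escort of SREBP, by 0.030. INSIG2 differed by 0.00034 and SP1 by 0.12, and of the 8 genes 4 had a lower and 4 a higher mean in rGAL1. That list had 0 genes past the threshold and 1 at an unadjusted p under 0.05, and a median of -0.017. Of acetyl-CoA suppliers in the cytosol, ACSS2 differed by -0.44 and ACLY by -0.18, and ACOT12, which removes acetyl-CoA and was dim at 3.66 in Ctrl, by 0.15. Among these 3, 0 passed and 1 had an unadjusted p under 0.05.

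**Figure D4:**
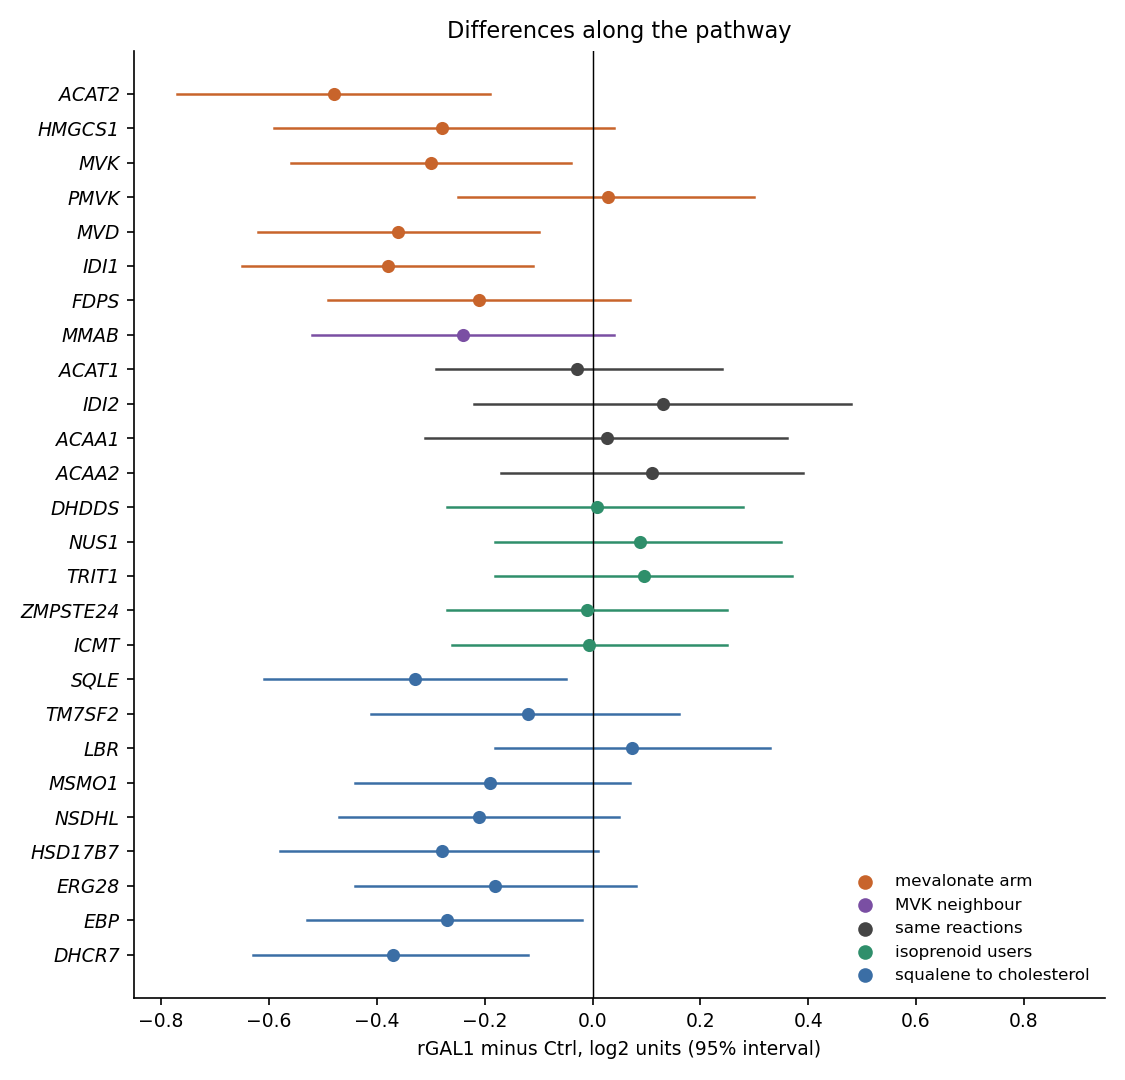
The rGAL1 minus Ctrl difference in log2 units (points, n = 2 arrays a group) with its 95% interval from the limma fit (lines) for the mevalonate arm, MMAB and 3 lists of related genes, named by colour. In the mevalonate arm 6 of 7 points lie between -0.48 and -0.21. From squalene to cholesterol 8 of 9 points are negative, the lowest at -0.37, and LBR lies at 0.073. The genes of like reactions and the isoprenoid users lie between -0.03 and 0.13.

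Over the whole series, 0 of 53617 probe sets (0%) passed an adjusted p under 0.05 for rGAL1 against Ctrl (limma, smallest adjusted p = 0.919), and 2807 (5.24%) had an unadjusted p under 0.05. The number of arrays limits the precision, with a median SE of 0.11 log2 units for named genes above the dim level. Through limma's prior, each SE also draws on the spread of all probe sets. MVK, for example, had an SE of 0.10 beside a pooled SD of 0.0216. With an intensity trend in that prior, the smallest adjusted p was 0.389 (limma). Array medians lay between 4.69 and 4.72. Of the pancreatic duct and epithelial markers, 8 of 12 were measured and all 8 lay above the dim level, with Ctrl means from 5.31 for TFF1 and 5.36 for KRT7 to 12.41 for KRT18. In 4 of these 8 (KRT7, KRT8, KRT18 and CLDN4) both rGAL1 arrays were lower than either Ctrl array, and in 1, EPCAM, higher. Of all named genes, 17.0% and 20.2% were separate in these directions. KRT7 differed by -0.38 (SE 0.17), and the groups stood only 0.02 apart for KRT8 and 0.01 for KRT18. The 4 endocrine markers measured had Ctrl means of 3.78 to 6.20, the highest being PDX1, and CHGA differed by -0.29 (SE 0.19). The endothelial, fibroblast and hepatocyte markers measured had Ctrl means of 2.91 to 5.60. Of the hepatocyte markers, APOB differed by -0.33 and ALB by 0.28, both below the dim level, and TTR by 0.054. The 4 measured acinar markers averaged 4.82 and 4.62 on the Ctrl arrays and 4.87 and 5.01 on the rGAL1 arrays, with CTRB1 differing by 0.61 (SE 0.18). Of 2 leukocyte markers, CD68, a lysosomal protein, differed by 0.39 and LYZ lay below the dim level at 4.58 in Ctrl. The part of these markers in the results was not tested.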

How the data were processed

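RNA of RWP-1 cells, 100 ng a sample, was labelled with biotin and hybridised to 4 single-channel arrays, per the labels' protocols. The deposited values are log2 expression per probe set. The submitters' processing notes name RMA and limma and give no version or settings. This method (RMA) normalizes between arrays and compresses differences of dim probe sets. Of 53617 probe sets in the table, the platform annotation names 16098 with 1 symbol, 0 with several and leaves 37519 unnamed. All 16098 matched a current record by Entrez ID, and 0 symbols changed. Groups came from sample titles.

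All probe sets were fitted with limma 3.58.1 in R 4.3.3 (lmFit, eBayes, no block; 2 residual and 2.75 prior degrees of freedom), with Benjamini-Hochberg adjustment over all of them at 0.05. SEs and 95% intervals come from that fit. Its check on simulated data required only that planted differences, larger than those of the members, were recovered on average. The coverage of the intervals was not checked. The members and lists were chosen with earlier results of these data known. Named genes were the members, the genes of fixed pathway lists, the nearest measured neighbours and the 5 most similar profiles. Of the 58 genes in the 5 pathway lists, 29 were measured. Promoters are RefSeq's (GRCh38.p14), matched by symbol. Alternatives changed the normalization, the arrays, the label of rGAL1 2, the probe set rule, the scale of the difference, the prior, the filter and the block.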

Additional observations from a re-analysis of the deposited data

How the results depend on the processing

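All alternatives were planned, except the search for the inner letters of the LDL receptor element. The median difference of the 7 genes was -0.30, from -0.346 to -0.284 when 1 array was left out, -0.306 after quantile normalization, -0.286 after centring on medians, and -0.179 with rGAL1 2 counted as a control. That relabelling reduced the genes with separate groups from 6 to 3; leaving out 1 array gave 6 to 7, and the other settings 6. Fits without a second array of a group take its spread from the other group. The replicate block left the median at -0.30 and 0 probe sets past the threshold; same-numbered arrays did not deviate together (r = -0.0476 over probe sets), so the numbers were not taken to pair the arrays. With limma 0 probe sets passed in every fit, and 2807 had an unadjusted p under 0.05, a looser threshold by construction. Of the 29 other pathway genes, 0 passed in any of the 9 settings run for them.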
